A study of Bos taurus with 5 samples.

Results

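SCD, PLA2G1B and APOA1 are 3 genes of lipid metabolism, and each was measured by 1 probe among the 10163 single-spot probes of a custom bovine oligonucleotide array. The probes were taken by RefSeq accession: NM_173959 for SCD, NM_174646 for PLA2G1B and NM_174242 for APOA1. Wall RNA, which holds granulosa cells and theca interna since stroma and theca externa had been removed, came from 3 largest follicles (F1) and 2 second-largest follicles (F2) of pregnant Japanese Black cows. Each follicle was labelled with Cy3 and hybridized to its own array. The follicles were untreated, their phase of the follicular wave was not controlled, and since 2 of the 4 cows gave follicles of both ranks, 1 or more of the arrayed F2 shared a cow with an F1. All groups therefore share breed and pregnancy, and differ by the rank of follicle size.

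Stearoyl-CoA desaturase (SCD) puts a double bond into saturated fatty acids and is the main source of newly made monounsaturated fatty acids, which enter membrane phospholipids, triglycerides and cholesterol esters. Phospholipase A2 group IB (PLA2G1B) is a secreted enzyme, best known from pancreatic juice, that cleaves phospholipids into a free fatty acid and a lysophospholipid. Apolipoprotein A1 (APOA1) is the main protein of high-density lipoprotein, takes up cholesterol from cells and activates the enzyme that esterifies it. High-density lipoprotein is the lipoprotein class that passes into follicular fluid and supplies the granulosa layer, which lies behind a basement membrane without blood vessels. The comparison of F1 with F2 asks which of these transcripts differ between the follicle that leads in size and the next one.

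The probes are shown because each value below rests on 1 oligonucleotide of 60 bases per gene. The last 30 bases of each are given 5′ to 3′ as the scanner files hold them, with the hexamer AATAAA, the letters of the common polyadenylation signal, in capitals.
SCD: tgttcatAATAAAagtgaatctgattgccc
PLA2G1B: ctttgaccttataccatgtcctccAATAAA
APOA1: cggtttcttagAATAAAcatttccggagtg
All 3 probes held the hexamer, which was present on the same strand in 8.88% of the 10163 probes and, as TTTATT, on the opposite strand in 3.99%. Among the 1415 probes of RefSeq mRNAs, to which these 3 belong, the shares were 13.0% and 3.11%. The hexamer was followed by 17 bases in the SCD probe, by 0 in the PLA2G1B probe and by 13 in the APOA1 probe. GC content was 35% for SCD, 45% for PLA2G1B and 55% for APOA1. The longest run of bases that any other probe of the array shared with them, on either strand, was 13 for SCD, 12 for PLA2G1B and 14 for APOA1, so no other probe of the array measured the same stretch.

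Signals are given relative to the median of 100 spots of a GAPDH sequence on the same array, the scale used in the study. The coefficient of variation among these GAPDH spots, which repeat 1 sequence within an array, ranged from 6.54% to 15.8%. The number of probes well above background was 5465 to 5855 per array, and the dimmest of them lay between 0.0124 and 0.0208 of the GAPDH median. Tests used limma over the 5528 probes that were well above background on all F1 arrays, on both F2 arrays, or on all 5. Of these, 11.5% had an adjusted p under 0.05 (6.39% with the F1 higher and 5.08% with the F2 higher), and 49.2% had F1 and F2 signals that did not overlap (F1 above F2 in 33.4%, F2 above F1 in 15.7%). All 3 lipid genes entered the test, PLA2G1B through the F1 alone. SCD and PLA2G1B are in the list of genes that the study selected on these same arrays, so their direction here is not independent evidence. The study also found both greater in the F1 by QPCR, on the same follicles and a further F2. The labels do not say how the follicles pair across groups, and p-values measure the spread between these follicles only.

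mRNA expression of SCD and PLA2G1B was greater in every F1 than in both F2, whereas APOA1 gave strong signals in all 5 follicles with overlapping groups. Fold differences are ratios of geometric means, that is, of means of log2 signals. SCD was 22.3-fold higher in the F1 and passed the threshold. PLA2G1B exceeded its F2 level 50.9-fold in the F1, with F2 replicate 1 set at the lowest signal well above background on its array. PLA2G1B passed with the filter on dim probes but not without it (limma adjusted p = 0.102). APOA1 differed by less than the spread between follicles.

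**Figure D1:**
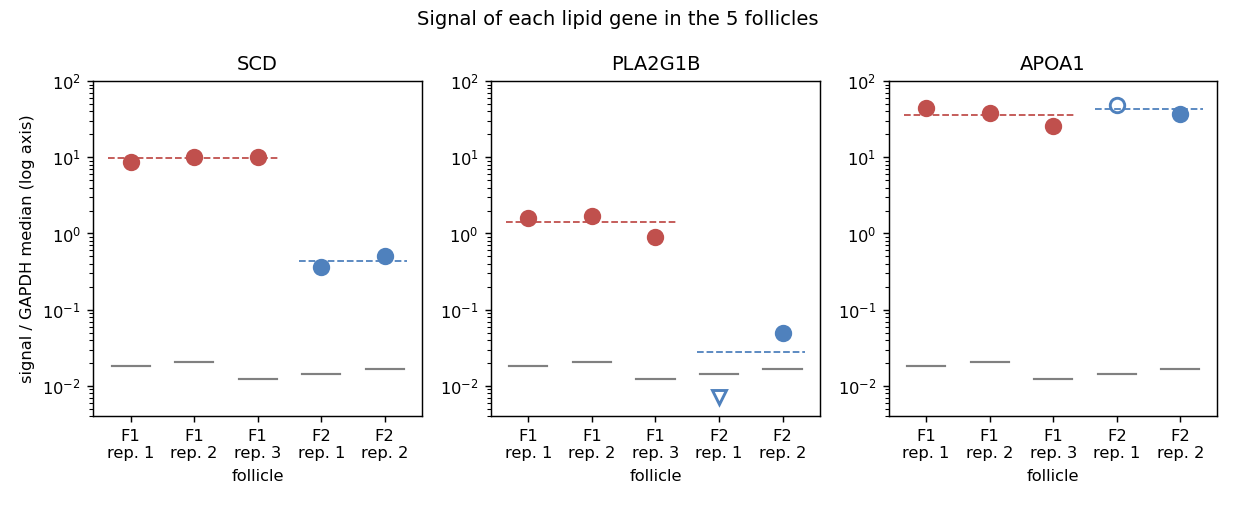
Signal of SCD, PLA2G1B and APOA1 in the 5 follicles, relative to the GAPDH median of the array and on a log axis. Red symbols are F1 and blue symbols F2, dashed lines are group means, grey bars mark the dimmest signal that each array measured well above background, the open triangle is a spot not well above background and the open circle is a saturated spot. SCD and PLA2G1B fall in both F2, and APOA1 is at 25.5 or above in all follicles, its highest value, 48.1, being a lower limit.

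For SCD, F1 replicates 1, 2 and 3 gave signals of 8.72, 10.2 and 10.1, and F2 replicates 1 and 2 gave 0.368 and 0.51. The lowest F1 thus lay far above the higher F2, and the groups did not overlap. Over the 6 pairs of an F1 and an F2, the ratio ranged from 17.1 to 27.8. The log2 difference F1 minus F2 was 4.48 (standard error 0.29, 95% interval 3.78 to 5.17, limma adjusted p = 0.000352). On the GAPDH scale the 3 F1 were close to each other, with a highest-to-lowest ratio of 1.17 against a median ratio of 1.59 over all tested probes. The F2 differed from each other by 1.39-fold, near the median of 1.33 for all probes. All SCD spots were well above background and free of saturated pixels, and the raw signal reached 14.6% to 23.5% of the scanner's saturation value in the F1, against 1.06% and 1.14% in the F2. The scanner software put the error of the SCD signal between 10.0% and 10.3% on each array. With the 75th percentile of each array as the scale, SCD was 24.7, 29.1 and 37.2 times that percentile in the F1 and 1.5 and 1.62 times in the F2, so the F1 were farther apart on that scale, and the log2 difference was 4.27 (limma adjusted p = 0.000777).

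For PLA2G1B, the 3 F1 gave 1.61, 1.70 and 0.912, whereas F2 replicates 1 and 2 gave 0.00719 and 0.049. Every F1 was far above both F2, and F1 replicate 3 was the lowest of the F1, at 1.86-fold below the highest. F2 replicate 1 was not well above background: its signal lay under the lowest signal well above background on that array, 0.0145, and its software error was 97.2% of the signal. In F2 replicate 2 the spot was well above background with an error of 28.6%. The 6.81-fold ratio between the F2 is therefore not a measured difference. With that spot raised to 0.0145, the geometric mean of the F1 exceeded that of the F2 50.9-fold. Spots not well above background can lie above such a minimum, so this bound is approximate. The limma fit took the F2 replicate 1 signal as measured and gave a log2 difference of 6.18 (adjusted p = 0.00593), whose size rests on a spot that was not well above background. Without the filter on dim probes, which PLA2G1B passed through the F1 alone, the adjusted p was 0.102. Against F2 replicate 2 alone, the only F2 that measured it, the ratio was 27.7-fold (log2 difference 4.79, limma adjusted p = 0.0481), and without F2 replicate 2 the bound was 93.6-fold. With each F1 left out in turn the bound was 45.5-fold to 62.1-fold. Normexp background correction with an offset, which lifts dim spots, lowered the log2 difference to 3.55.

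For APOA1, the 3 F1 gave 43.7, 38.6 and 25.5, and F2 replicates 1 and 2 gave 48.1 and 37.3. The groups overlapped, since F1 replicates 1 and 2 were both above F2 replicate 2. The spot of F2 replicate 1 was saturated in all of its 61 pixels, so 48.1 is a lower limit there. The other spots were not saturated but reached 56.0% to 71.9% of the saturation value in raw signal, the upper part of the scanner's range. The log2 difference F1 minus F2 was -0.27 (standard error 0.34, 95% interval -1.09 to 0.55, limma adjusted p = 0.626). On the linear scale this interval runs from 0.469-fold to 1.46-fold for F1 over F2, and the saturated F2 could move the difference further below 0. Without that follicle it was -0.09 (95% interval -1.34 to 1.16). The highest signal over all 5 follicles was at least 1.88 times the lowest. F1 replicate 3, which gave the lowest APOA1 value, had the highest GAPDH median (1411 against 868.7 to 1255 on the other arrays). Scaled to the 75th percentile, APOA1 was at 124, 110 and 94.3 in the F1, against 196 and 118 in the F2, so the groups still overlapped (log2 difference -0.48, limma adjusted p = 0.296).

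Among other named genes, SERPINF2 had the profile nearest to SCD. The profiles nearest to SCD and PLA2G1B also included inhibin subunits, AMH, follistatin and CYP17A1, genes of granulosa and theca cells. None of the 5 nearest to APOA1 was among the 5 nearest to SCD or PLA2G1B. Likeness was measured as the root mean square distance between log2 signals over the 5 follicles, each profile being centred on its own mean. With groups this far apart, a small distance reflects mainly a like difference between F1 and F2. Of 734 named probes well above background on all 5 arrays, the nearest to SCD were SERPINF2 (alpha-2-antiplasmin; distance 0.32), INHBA (inhibin beta A; 0.33), CYP17A1 (the androgen-forming enzyme of theca cells; 0.35), INHA (inhibin alpha; 0.41) and AMH (anti-Mullerian hormone; 0.46). Of 776 candidates for PLA2G1B, the nearest were TRIB2 (a pseudokinase; 0.56), FST (follistatin; 0.76), SERPINF2 (1.12), SCD (1.16) and INHA (1.17). Spots of INHBA, INHA and TRIB2 were saturated on the 3 F1 arrays, and those of FST on 2, so their F1 levels are lower limits. All of these neighbours are, like SCD and PLA2G1B, among the genes that the study selected on these same arrays. Their like direction is therefore not independent evidence. Nearest to APOA1 were PCTP (phosphatidylcholine transfer protein; 0.09), GOT1 (aspartate aminotransferase; 0.12), EIF6 (a translation factor; 0.14), PSENEN (a gamma-secretase subunit; 0.16) and PLP2 (a membrane proteolipid; 0.16). For PCTP the F1 gave 0.268, 0.223 and 0.138, the F2 0.275 and 0.241, with the same order of follicles as APOA1 but for the place of F2 replicate 2. The distances from PLA2G1B include its F2 replicate 1 spot, not well above background, and those from APOA1 its saturated spot, so both describe the recorded signals.

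**Figure D2:**
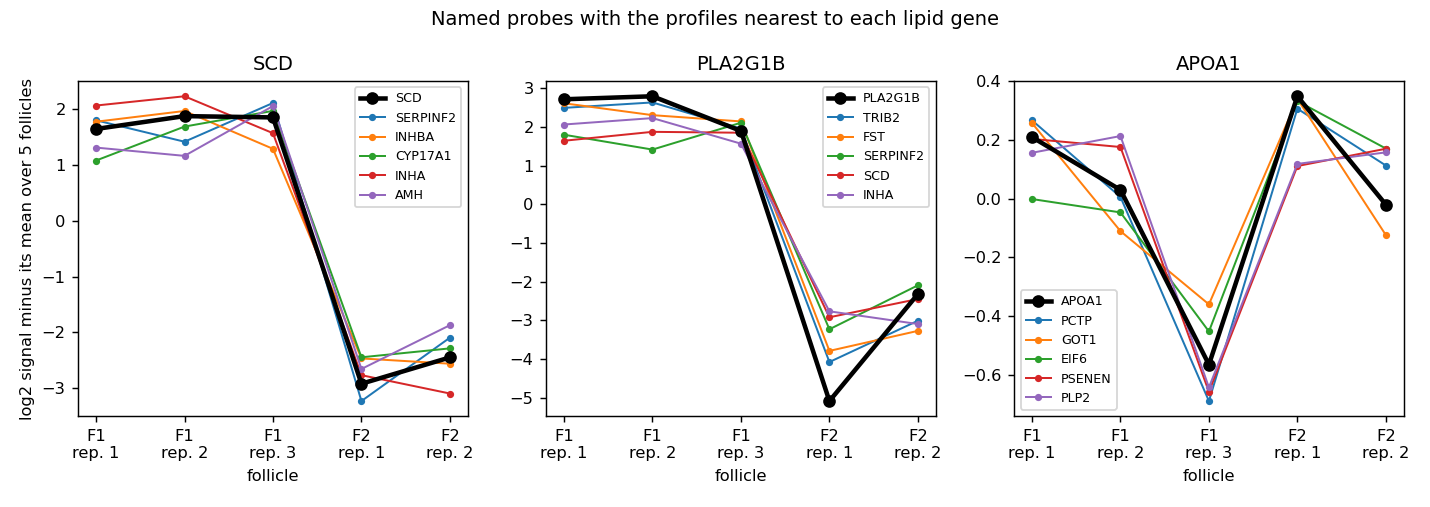
Log2 signal minus its mean over the 5 follicles for SCD, PLA2G1B and APOA1 (black) and the 5 nearest named probes of each (colors); the vertical scales differ between panels. SCD and PLA2G1B and their neighbours fall in both F2, whereas APOA1 and its neighbours are lowest in F1 replicate 3, and EIF6 alone of them has both F2 above all F1.

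Cell type markers moved between F1 and F2 as well. All 8 granulosa markers on the array were higher in the F1 in limma, against 6.39% of all tested probes. Of these markers, FSHR, CYP19A1, INHA, INHBA, AMH and FST were also selected by the study on these arrays. FSHR, INHBB and CYP19A1 entered the test through the F1 alone, so this count is not independent evidence. The summed signal of the granulosa markers was 221 to 307 in the F1, against 13.3 to 20.4 for the F2. Most of the F1 sum came from INHA, INHBA and SERPINE2, saturated on all 3 F1 arrays, and FST, saturated on 2, so it is a lower limit, and FSHR and INHBB were not well above background in either F2. Of 7 theca markers, 4 were higher in the F1 in limma, against 6.39% of all tested probes. Among these, LHCGR entered the test through the F1 alone, and CYP17A1 was also selected by the study on these arrays. The paper's background also describes LH receptor expression in granulosa cells of the dominant follicle, so LHCGR is not particular to theca. The summed signal of the theca markers was 69.5 to 105 in the F1, against 30.2 to 33.4 for the F2. More than any other marker, INSL3 made up that F1 sum and was saturated on 2 F1 arrays, whereas STAR, which brings cholesterol into mitochondria, had 3.14 to 5.56 in the F1, against 9.91 and 16.1 for the F2 (log2 difference -1.48, limma adjusted p = 0.0593). In RNA of a whole wall, fewer cells of a type and less RNA per cell cannot be told apart, and the part of granulosa or theca content in the SCD and PLA2G1B differences was not tested. Of 2 exocrine pancreas markers, the tissue where PLA2G1B is best known, CPA1 had 0.127 to 0.281 in the F1, against 0.14 and 0.211 for the F2 (limma adjusted p = 0.939), and PRSS2 was well above background in 1 F1 and no F2. For APOA1, which is made mainly by liver and intestine, 5 of 6 hepatocyte markers (ALB, AHSG, FGG, SERPINA1 and AMBP) were not well above background on any array, and TF, the transferrin gene, had 0.14 to 0.215 in the F1, against 0.121 and 0.13 for the F2.

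Other genes of lipid metabolism were taken from 4 lists. Of 202 listed genes, 47 were matched to a probe and 33 entered the test. Of these 33, 10 had an adjusted p under 0.05, 2 with the F1 higher and 8 with the F2 higher, against 6.39% and 5.08% of all tested probes. The median log2 difference of the 33 was -0.01, against 0.27 over all tested probes. Among the 8, OLR1, FABP4 and SAA3 entered the test through the F2 alone, and OLR1 was also selected by the study on these arrays. Fewer list genes were called with either F2 left out. FABP5 kept a log2 difference of -3.50 to -3.36 with each follicle left out in turn. For OLR1 and FABP4 all F1 signals were negative and set to the floor of 0.001, so leaving out an F1 could not change their difference. The other 14 matched genes were too dim for the test, and the remaining 155 listed genes are not analysed here.

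**Figure D3:**
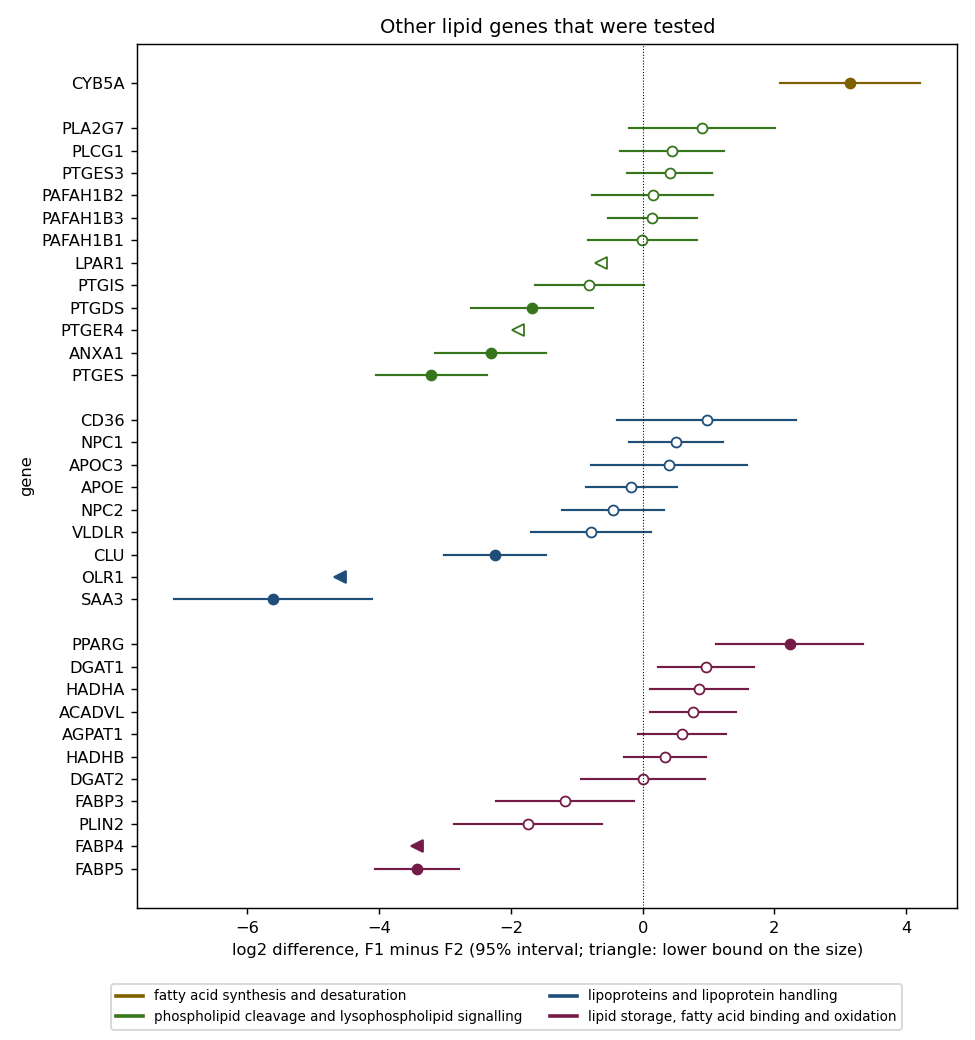
Log2 difference F1 minus F2 for the 33 other lipid genes that entered the test, colored by list, with 95% intervals from limma. Filled symbols had an adjusted p under 0.05, and triangles are approximate lower limits on the size, for genes not well above background in any F1. CYB5A and PPARG lie to the right of 0, and 8 filled symbols lie to the left.

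From the list of fatty acid synthesis and desaturation, 2 of 40 genes had a probe. CYB5A encodes cytochrome b5, which hands electrons to SCD and to other microsomal enzymes. The F1 gave signals of 0.555, 0.578 and 0.287, the F2 0.038 and 0.0679. As for SCD, every F1 was above both F2, by 8.89-fold on average (log2 difference 3.15, limma adjusted p = 0.00819). CYB5A did not pass with F2 replicate 1 left out (limma adjusted p = 0.159) or with F2 replicate 2 left out (0.0612). ACACA, acetyl-CoA carboxylase, which makes the precursor for fatty acid synthesis, was near background, with 0.0226 to 0.0306 in the F1, against 0.0138 and 0.0361 for the F2, and did not enter the test.

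From the list of phospholipid cleavage and lysophospholipid signalling, 21 of 59 genes had a probe and 12 entered the test. Of these, 3 were called, all with the F2 higher, against 5.08% of all tested probes. The median log2 difference of the 12 was -0.41, or -0.32 with genes not measured in the F1 at their bound. PLA2G7, a phospholipase A2 that degrades platelet-activating factor and was chosen for the text after its values had been seen, gave 0.185, 0.278 and 0.366 for the F1, against 0.0964 and 0.211 for the F2. These signals overlapped (log2 difference 0.90, limma adjusted p = 0.247), unlike those of PLA2G1B. PTGES, the inducible prostaglandin E synthase, was 9.25-fold higher in the F2, with 0.913 and 0.701 against 0.0695 to 0.121 in the F1 (limma adjusted p = 0.00338, and 0.0944 without F2 replicate 1). ANXA1, annexin A1, which binds phospholipids and was first known as an inhibitor of phospholipase A2, was 4.94-fold higher in the F2, with 3.78 and 3.98 against 0.553 to 1.06 (limma adjusted p = 0.0111). PTGDS, prostaglandin D synthase, was also greater in the F2, by 3.21-fold, with 8.05 and 7.81 against 1.6 to 3.43 (limma adjusted p = 0.0412). ANXA1 and PTGDS did not pass without F2 replicate 1 (limma adjusted p = 0.160 and 0.278) or without F2 replicate 2 (0.104 and 0.181), nor did PTGDS without F1 replicate 1 (0.0966) or F1 replicate 3 (0.0551). The brightest genes that did not pass were PAFAH1B1, PAFAH1B2 and PAFAH1B3, subunits of an acetylhydrolase of platelet-activating factor, and PTGES3, a chaperone partner also known as a prostaglandin E synthase, with log2 differences of -0.01 to 0.41. The direction of the 3 PAFAH1B genes depended on the scaling or background method.

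From the list of lipoproteins and lipoprotein handling, 11 of 54 genes had a probe and 9 entered the test (median log2 difference -0.45). Of these, 3 were called, all with the F2 higher, against 5.08% of all tested probes. OLR1 and SAA3 entered the test through the F2 alone. APOE, the apolipoprotein of lipoprotein remnants, resembled APOA1 in that it was present in all follicles, the F1 giving 21.3, 25.9 and 18.4, the F2 25.9 and 23.1. Its groups overlapped (log2 difference -0.17, 95% interval -0.86 to 0.51, limma adjusted p = 0.713). CLU, clusterin, also called apolipoprotein J, was 4.74-fold higher in the F2, with 26.6 and 40.0 against 5.64, 7.53 and 7.63 (limma adjusted p = 0.00872). SAA3, a serum amyloid A protein that binds high-density lipoprotein, was dim in F1 replicate 3 but well above background in the other F1. By the recorded signals, the geometric mean of the F2 was 48.7-fold that of the F1, with 1.08 and 1.78 against 0.0129 to 0.0547 (limma adjusted p = 0.00358). That size rests in part on the F1 replicate 3 spot, which was not well above background. OLR1, a receptor of oxidized low-density lipoprotein that the study also selected on these arrays, was measured in the F2 alone, at 0.574 and 0.283. The F1 spots were not well above background, which gives a difference of at least 24.1-fold (limma adjusted p = 9.78e-05). All F1 signals of OLR1 were negative and floored at the same value, so they add no measured spread to this p-value. CLU and SAA3 did not pass without F2 replicate 1 (limma adjusted p = 0.0711 and 0.112) or F2 replicate 2 (0.0784 and 0.0778). CD36, a scavenger receptor and fatty acid transporter, and NPC1 and NPC2, which export cholesterol from lysosomes, did not pass, with log2 differences of 0.97, 0.50 and -0.45.

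From the list of lipid storage, fatty acid binding and oxidation, 13 of 49 genes had a probe and 11 entered the test (median log2 difference 0.34). Of these, 1 was called with the F1 higher and 2 with the F2 higher, against 6.39% and 5.08% of all tested probes. FABP4 entered the test through the F2 alone. PPARG, a nuclear receptor of fatty acids, gave 0.491, 1.08 and 0.912 for the F1, against 0.121 and 0.231 for the F2, a 4.70-fold difference in the direction of SCD (limma adjusted p = 0.0304). With a follicle left out, PPARG still passed without F1 replicate 1 but not in the other 4 cases (limma adjusted p = 0.0600 to 0.275). FABP5, a fatty acid binding protein of epithelia and macrophages, was 10.8-fold higher in the F2, with 0.628 and 0.686 against 0.0577 to 0.0675 (limma adjusted p = 0.000787). FABP4, the fatty acid binding protein of adipocytes, macrophages and capillaries, was measured in the F2 alone, at 0.167 and 0.191. This gives a difference of at least 10.7-fold (limma adjusted p = 7.43e-05). The F1 signals of FABP4 were all negative and floored at the same value, so they add no measured spread to this p-value. PLIN2, a coat protein of lipid droplets, gave 7.69, 4.02 and 3.72 for the F1, against 11.5 and 23.1 for the F2 (log2 difference -1.74, limma adjusted p = 0.0616), and passed in 7 of 15 alternative settings. ACADVL and HADHA, enzymes of mitochondrial fatty acid oxidation, and AGPAT1, an enzyme of phospholipid synthesis, had log2 differences of 0.76, 0.85 and 0.60 and did not pass.

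Some markers of other cell types were higher in the F2, as were 8 of the 33 tested lipid list genes. Of 4 myeloid markers, CD14, AIF1 and TYROBP were higher in the F2 in limma, against 5.08% of all tested probes. The summed signal of the list was 0.909 to 1.05 in the F1, against 1.61 and 1.95 for the F2. Most of that sum was ITGB2, which did not pass, with 0.831 to 0.899 in the F1, against 1.13 and 1.46 for the F2 (limma adjusted p = 0.217). Of 6 endothelial markers, SELP alone was called, with 0.0395 to 0.0838 in the F1, against 0.636 and 0.864 for the F2. SELP is also among the genes that the study selected on these arrays. It made up most of the list's summed F2 signal (0.753 and 1.11, against 0.144 to 0.206 for the F1), while TEK and TIE1 overlapped between groups (log2 differences -0.57 and 0.22) and CDH5 and SELE were not well above background on any array. Of 4 fibroblast and smooth muscle markers, LUM was greater in the F2, by 3.04-fold (limma adjusted p = 0.037). FBN1 and DCN did not pass (log2 differences -1.53 and -0.79, limma adjusted p = 0.0788 and 0.278), nor did COL1A2 (0.16). The summed signal was 5.70 to 9.51 in the F1, against 10.1 and 17.1 for the F2. Most of it was DCN, which overlapped between groups, with 3.74 to 6.87 in the F1, against 5.77 and 12.2 for the F2. Of 3 T cell markers, CD3E was well above background in both F2 and in no F1. Its F2 signals were dim, at 0.0337 and 0.0242, where the dimmest signals well above background on these arrays were 0.0145 and 0.0167. CD8A was well above background in 1 F2 only, and CD5 in no follicle. Of 2 adipocyte markers, LEP was not well above background in any follicle, whereas FABP4, described above, was measured in the F2 alone. HBB and SLC4A1 of red blood cells were not well above background in any follicle. The part of these cell types in the differences was not tested.

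**Figure D4:**
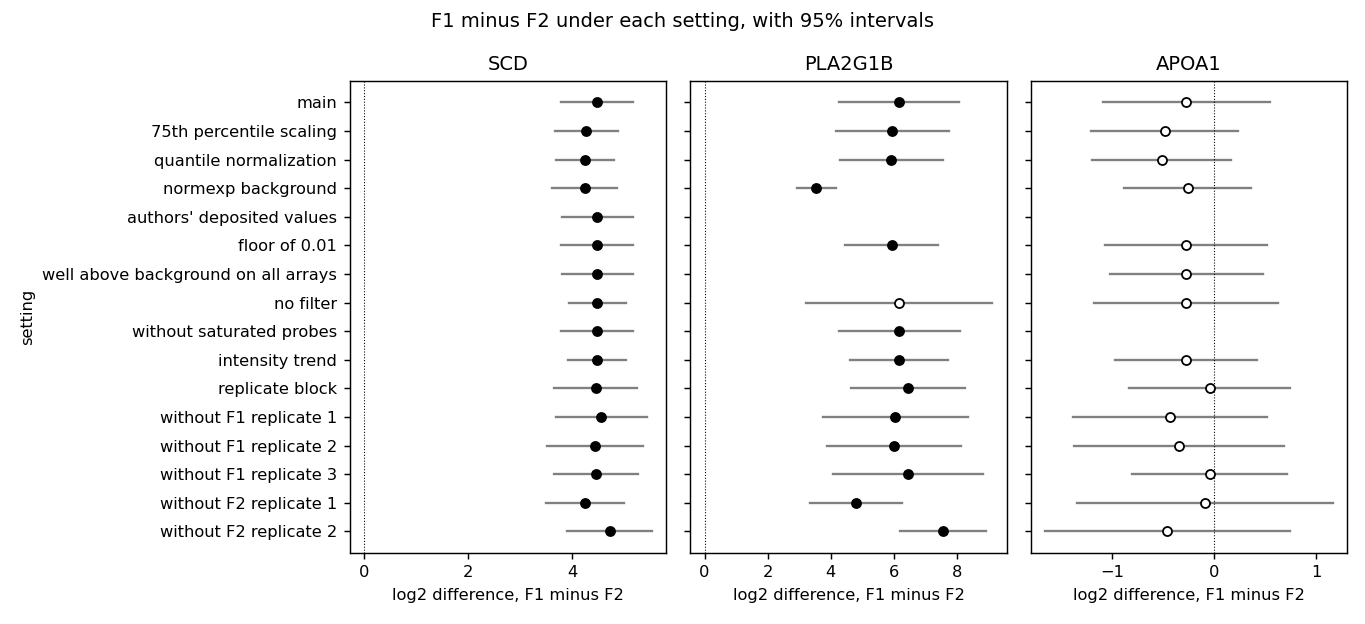
Log2 difference F1 minus F2 of SCD, PLA2G1B and APOA1 under each setting, with 95% intervals from limma; filled points had an adjusted p under 0.05, and a missing point means that the probe was not tested under that setting. SCD stays between 4.23 and 4.71, PLA2G1B between 3.55 and 7.56, and every APOA1 interval contains 0.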

How the data were processed

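Each follicle was hybridized to its own single-color Agilent array. The deposited scanner files hold, per spot, a processed signal intensity from which the authors' software had subtracted background, its error, and quality flags (above background, saturation, outlier). Also deposited was the authors' table of ratios of this signal to the GAPDH median, which differed from ratios recomputed here by at most 0.0005. No genome build is involved.

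Signals were divided by the GAPDH median, floored at 0.001 and, on the log2 scale, compared by limma 3.58.1 (lmFit, eBayes) under R 4.3.3 (Benjamini-Hochberg over 5528 probes, threshold 0.05). Control, GAPDH and outlier-flagged spots were left out and saturated spots kept. The number of arrays limits precision. Of 1415 probes with RefSeq accessions, 1364 were matched to a symbol (ARS-UCD2.0 table, names only).

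The 3 genes and the lists were chosen with earlier results of these data known. Named were list genes past the threshold (at most 8 a list), the 4 brightest others of each list and the 5 nearest profiles of each gene. Where a group was dim, folds are approximate lower bounds, with dim spots raised to the dimmest signal well above background on the array. A gene counted as not well above background only by the software's flag. Alternatives were other scaling, background, floor and filters, the authors' values, saturated probes left out, an intensity trend, a replicate block and each follicle left out.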

Additional observations from a re-analysis of the deposited data

How the results depend on the processing

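SCD kept its direction and call in all 15 alternatives (log2 difference 4.23 to 4.71), PLA2G1B kept its direction in all 13 that could test it, and APOA1 stayed below 0 without passing in its 13 (-0.51 to -0.04). With no filter on dim probes, where more probes are tested, PLA2G1B had a log2 difference of 6.18 with limma adjusted p = 0.102, list genes called numbered 3 and all probes called 214 (F1 higher in 101, F2 higher in 113), against 10 and 634 (353 and 281) with it. PLA2G1B could not be tested where all 5 arrays had to be above background or in the authors' values, nor APOA1 in the authors' values or without saturated probes.

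With each follicle left out, the log2 difference was 4.24 to 4.71 for SCD, 4.79 to 7.56 for PLA2G1B and -0.46 to -0.04 for APOA1, list genes called numbered 3 to 11, and all probes called 160 to 550. The counts were lowest without F2 replicate 1 (3 and 160, with the F1 higher in 54 and the F2 in 106), without F2 replicate 2 (4 and 199, the F1 higher in 122 and the F2 in 77) and, for all probes, without F1 replicate 1 (344, the F1 higher in 161 and the F2 in 183), so the balance of directions depended on the follicle left out. A lone F2 is assumed to vary as the F1 do.

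The median log2 difference of all probes was 0.27 after GAPDH scaling and 0.06 after the 75th percentile, where 48.8% of 863 calls were higher in the F1 against 55.7% of 634. The 3 uncalled PAFAH1B genes changed sign: PAFAH1B3 to -0.062 and PAFAH1B2 to -0.061 with the 75th percentile, PAFAH1B3 to -0.17 and PAFAH1B2 to -0.13 with quantile normalization, and PAFAH1B1 to 0.059 with normexp, and with a follicle left out PAFAH1B2 ranged from -0.11 to 0.44 and PAFAH1B1 from -0.31 to 0.29.

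With the replicate block, which leaves F1 replicate 3 no weight since no F2 has its number, the log2 difference was 4.45 for SCD, 6.46 for PLA2G1B, -0.04 for APOA1 and 0.19 for PAFAH1B1, 11 list genes and 578 probes were called, and PTGDS had limma adjusted p = 0.0619. Whether equal numbers mean paired follicles is not stated, and deviations from the group mean correlated at 0.0389 between the follicles numbered 1 and at 0.13 between those numbered 2.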
